A study of Mus musculus with 12 samples.

Results

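The aquaporin genes Aqp1, Aqp3, Aqp4, Aqp7, Aqp8 and Aqp11 were followed in the small intestine and colon of mice with and without epithelial Cftr. The 6 genes were taken by their symbols in the platform annotation, out of 19057 named genes on the array, and were read by 14 probes. Transcripts had been measured on Illumina mouse BeadChip arrays, which report 1 brightness per probe, deposited as normalized log2 values. The 12 arrays formed 4 groups of 3, which were small intestine of mutant mice, small intestine of wild-type mice, colon of mutant mice and colon of wild-type mice. Mutant mice were labelled Apc+/+ Cftrfl/fl-Villin-Cre, so that floxed Cftr was exposed to a Cre recombinase driven by the Villin promoter, which is active in the intestinal epithelium and not in the cells beneath it. Wild-type mice were labelled Apc+/+ Cftr+/+-Villin-Cre, although another label words them without Cre. All mice were C57BL/6, 3 months old and carried intact Apc by their genotype labels, whereas the series description calls the mutants deficient in Apc as well. The small-intestinal samples were described as mid-duodenum whose villi had been sheared off, with the stroma still present. The colon samples were described as epithelium parted from the distal colon, although 1 protocol speaks of whole colon.

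Aquaporins are membrane channels that assemble as tetramers and let water follow the salt gradients that epithelia build. Aqp1, Aqp4 and Aqp8 belong to the water-selective or water-conducting branch, Aqp3 and Aqp7 are aquaglyceroporins that also pass glycerol, and Aqp11 is a divergent member found largely on membranes inside the cell. In the gut, Aqp8 is known from surface cells of the colon, Aqp4 from basolateral membranes, and Aqp1 from the endothelium of small vessels, so that their levels in a tissue sample also carry its mix of cells. Cftr, the chloride and bicarbonate channel, supplies part of the anion secretion that draws water into the lumen.

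The Cftr probe above background read 8.18 in mutant and 8.22 in wild-type small intestine, and 8.11 in mutant and 8.02 in wild-type colon, which were not called different by limma (adjusted p = 0.998 and 0.957). The labels and files do not place that probe relative to the deleted part of Cftr, so it checks no label. A probe was taken as above background when it exceeded 7.78 on the log2 scale, and 12 of the 14 aquaporin probes did so on at least 3 arrays. The tissue labels were set against markers. The mean of 10 absorptive enterocyte markers lay between 12.26 and 12.55 on small-intestinal arrays, against 7.98 to 8.49 on colon arrays. These markers were bright although the villi were described as sheared off, and how many villus cells remained was not tested. The mean of 8 surface colonocyte markers lay between 8.69 and 8.82 on small-intestinal arrays, against 11.17 to 11.43 on colon arrays, and 8 general epithelial markers averaged 11.14 to 11.50 on all 12. Smooth muscle markers, 7 in number, averaged 10.49 to 10.67 on small-intestinal arrays and 7.75 to 7.92 on colon arrays. Pancreatic acinar markers set 3 small-intestinal arrays apart. Their mean was 9.89 and 11.33 on mutant arrays 1 and 2, and 11.53 on wild-type array 2, against 8.16 to 8.30 on the other small-intestinal arrays and 8.32 to 8.48 in colon. Aquaporin differences that change sign without these arrays are given with and without them. Without them, mutant array 3 is the only mutant small-intestinal array.

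Between the tissues, Aqp8 and Aqp4 were lower in small intestine than in colon, and Aqp3, Aqp7 and Aqp11 were higher, in both genotypes. Aqp1 was the only member not called. The fit took all arrays as independent, although each mouse gave both tissues and no label pairs them. In mutant mice 5 of the 6 genes passed limma's threshold of 0.05 after adjustment over 15996 features, and in wild-type mice the same 5 of 6 passed. The tissues differ so widely that these counts stand beside a large background, with 39.4% of all features called in mutant mice and 41.2% in wild-type mice. Lower calls made up 22% and 23.4% of all features in mutant and wild-type mice, and higher calls 17.3% and 17.9%. The arrays of the tissues did not overlap for these 5 genes, as was so for 48.7% of all features in mutant and 53.9% in wild-type mice. The median absolute difference was 0.92 over the 6 genes and 0.11 over all features in mutant mice, and 0.98 and 0.11 in wild-type mice. Aqp3 and Aqp7 were kept largely through their small-intestinal arrays, so these medians and counts are no independent support. The tissues also differ in preparation, with the wall kept in one and parted off in the other, and tissue and preparation cannot be told apart. In such bulk samples fewer cells of a type and less RNA per cell cannot be told apart either.

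Aqp8, a water channel of colonic surface cells, showed the widest span of the 6 genes. Its brighter probe, ILMN_2756379, read 8.09, 7.87 and 7.84 in mutant small intestine and 11.53, 12.40 and 11.92 in mutant colon. It read 8.17, 8.01 and 8.13 in wild-type small intestine and 11.49, 12.05 and 11.76 in wild-type colon. All 6 small-intestinal arrays lay near the background limit, and every colon array lay far above them. The difference, small intestine minus colon, was -4.02 ± 0.20 in mutant mice, a 16.2-fold lower value (SE, n = 3 each, limma adjusted p = 9.24e-08). In wild-type mice it was -3.67 ± 0.20, a 12.7-fold lower value (SE, n = 3 each, limma adjusted p = 1.64e-07). A second Aqp8 probe gave -4.24 in mutant and -3.86 in wild-type mice and was above background on 1 of the 3 mutant small-intestinal arrays. The deposited values end in a floor, and correcting for background with the normexp method gave -5.96 in mutant and -5.16 in wild-type mice.

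Aqp4, a water channel of basolateral membranes, showed the same direction. Its probe ILMN_2757232 read 8.17, 8.32 and 8.41 in mutant small intestine and 11.58, 12.20 and 11.32 in mutant colon. It read 8.15, 8.72 and 8.67 in wild-type small intestine and 12.02, 11.74 and 11.21 in wild-type colon. The tissues did not overlap, and all small-intestinal values were above background. The difference was -3.40 ± 0.25, or 10.6-fold lower, in mutant mice (SE, n = 3 each, limma adjusted p = 2.13e-06). It was -3.15 ± 0.25, or 8.86-fold lower, in wild-type mice (SE, n = 3 each, limma adjusted p = 3.29e-06). The second Aqp4 probe, which the platform annotates to a different transcript record, did not show this gap. It averaged 7.80 and 7.84 in small intestine and colon of mutant mice, and 7.77 and 7.83 in those of wild-type mice, all next to the background limit. Taking the mean of both probes therefore reduced the differences to -1.72 in mutant and -1.60 in wild-type mice, still called. With normexp correction the brighter probe gave -4.57 in mutant and -4.11 in wild-type mice.

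**Figure D1:**
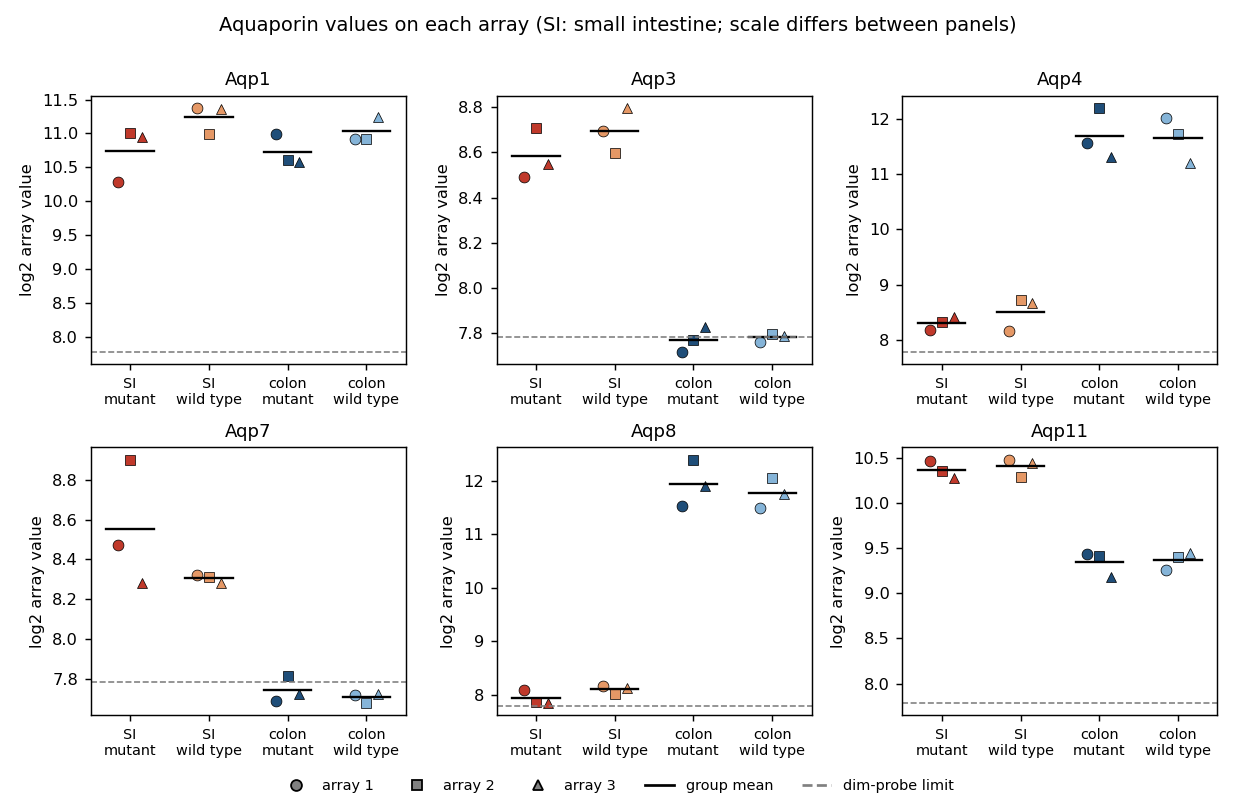
Log2 value of each of the 6 aquaporin genes on every array, 1 panel per gene with its own vertical range, with the groups (SI, small intestine) along the horizontal axis, the bar at the group mean and the dashed line at the background limit of 7.78. Aqp8 and Aqp4 were low in both small-intestinal groups, Aqp3, Aqp7 and Aqp11 were high there, and Aqp1 overlapped between tissues.

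Aqp3, an aquaglyceroporin of basolateral epithelial membranes, was higher in small intestine. It read 8.49, 8.71 and 8.55 in mutant small intestine and 7.72, 7.77 and 7.83 in mutant colon. It read 8.70, 8.60 and 8.80 in wild-type small intestine and 7.76, 7.80 and 7.78 in wild-type colon. The colon values straddled the background limit, which 1 of 3 mutant and 2 of 3 wild-type colon arrays exceeded, and both colon means lay under it. The measured difference, for which no fold is given, was 0.81 ± 0.06 in mutant mice (SE, n = 3 each, limma adjusted p = 2.46e-06). It was 0.92 ± 0.06 in wild-type mice (SE, n = 3 each, limma adjusted p = 8.51e-07). With normexp correction the differences were 2.48 in mutant and 2.61 in wild-type mice, so the size of the difference depends on how background is treated.

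Aqp7, the glycerol channel best known from fat cells, was also brighter in small intestine. Its probe ILMN_1254953 read 8.47, 8.90 and 8.28 in mutant small intestine and 7.69, 7.82 and 7.73 in mutant colon. It read 8.32, 8.31 and 8.28 in wild-type small intestine, against 7.72, 7.68 and 7.72 in wild-type colon. All 3 wild-type colon arrays were not well above background, as were 2 of 3 mutant colon arrays. In wild-type mice Aqp7 was at least 1.44-fold higher in small intestine than in colon, with means of 8.30 and 7.71 (limma adjusted p = 0.0022). In mutant mice the measured difference was 0.81 ± 0.12, against a colon mean of 7.74 that lay under the background limit (SE, n = 3 each, limma adjusted p = 0.00033). Of the other Aqp7 probes, 1 was dim on all arrays. The remaining pair had positive differences that passed limma's threshold in mutant mice, 0.66 and 0.28, and did not pass in wild-type mice, 0.47 and 0.13 (adjusted p = 0.0573 and 0.0779). With normexp correction ILMN_1254953 gave 2.55 in mutant and 2.30 in wild-type mice. Averaging the kept probes gave 0.58 in mutant and 0.40 in wild-type mice, still called.

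Aqp11, the intracellular member, was higher in small intestine as well. Its probe read 10.46, 10.35 and 10.28 in mutant small intestine and 9.44, 9.41 and 9.19 in mutant colon. It read 10.48, 10.29 and 10.44 in wild-type small intestine and 9.26, 9.40 and 9.44 in wild-type colon. These values were well above background in both tissues and tight within each group. The difference was 1.02 ± 0.08, or 2.03-fold, in mutant mice (SE, n = 3 each, limma adjusted p = 3.62e-06). In wild-type mice it was 1.04 ± 0.08, or 2.05-fold (SE, n = 3 each, limma adjusted p = 2.68e-06). A second Aqp11 probe was above background on 1 array of 12 and was not tested.

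Aqp1, the endothelial water channel, was bright everywhere and did not separate the tissues. Its brightest probe, ILMN_2756486, read 10.28, 11.01 and 10.95 in mutant small intestine and 10.99, 10.61 and 10.59 in mutant colon. It read 11.37, 11.00 and 11.37 in wild-type small intestine and 10.92, 10.92 and 11.24 in wild-type colon. The tissues overlapped in both genotypes. The difference was 0.02 ± 0.20 in mutant mice and 0.22 ± 0.20 in wild-type mice (SE, n = 3 each, limma adjusted p = 0.96 and 0.431). Endothelial markers did separate the tissues. The mean of 13 such markers lay between 8.46 and 8.65 on small-intestinal arrays and between 7.81 and 7.85 on colon arrays. Between 11 and 13 of these markers were above background on small-intestinal arrays, and between 5 and 9 on colon arrays. Plvap, a protein of fenestrated capillaries, read 10.04 to 10.65 on small-intestinal arrays and 7.71 to 7.78 on colon arrays. Not all of them followed it. Esam, Egfl7, Ramp2 and Vwf, chosen after their values were seen, were above background on all 12 arrays, and Kdr, a receptor for vascular growth factor, was lower in wild-type small intestine than in wild-type colon, at 7.74 and 7.84 (limma adjusted p = 0.0057). The part of endothelial cells in the Aqp1 values was not tested.

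**Figure D2:**
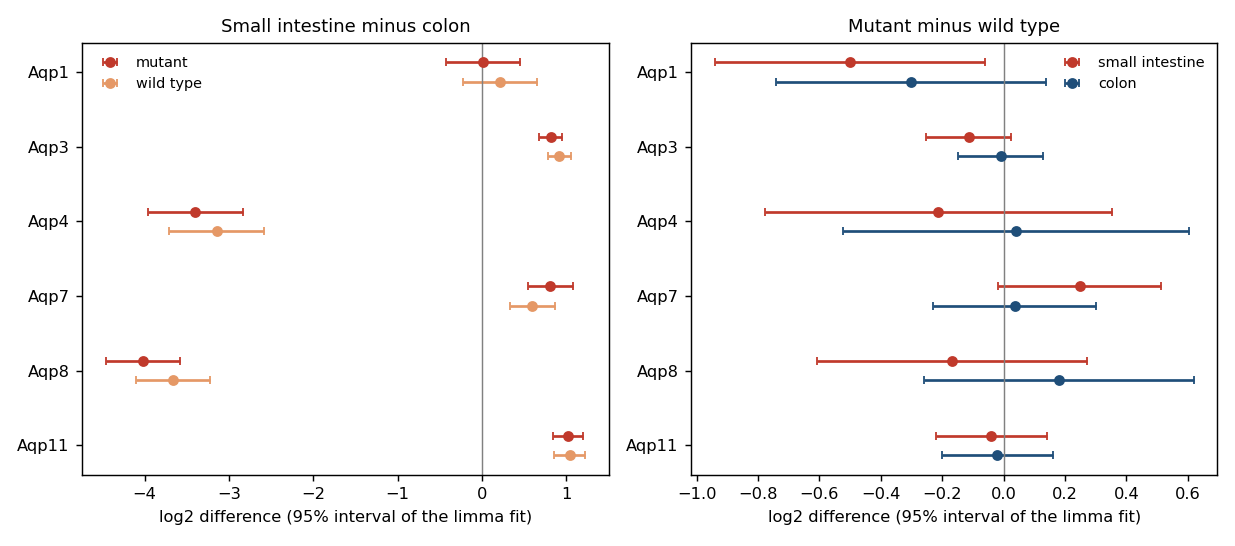
Differences of the log2 values with 95% intervals for the 6 genes, for small intestine minus colon in each genotype and for mutant minus wild type in each tissue. The tissue differences of 5 genes lay away from 0 in both genotypes, and the genotype intervals all included 0 apart from that of Aqp1 in small intestine, which was not called after adjustment.

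**Figure D3:**
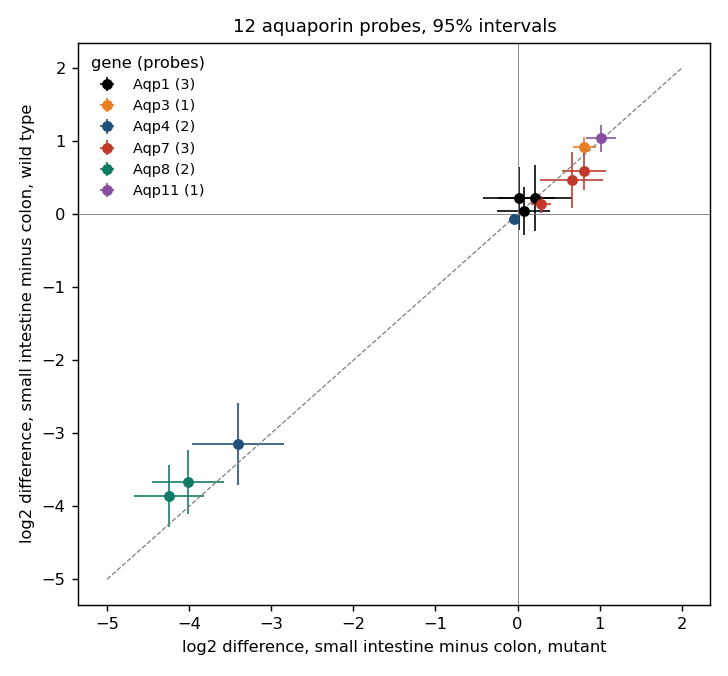
Small intestine minus colon in mutant mice (horizontal axis) against the same difference in wild-type mice (vertical axis), on the log2 scale, for each of the 12 kept probes with 95% intervals, and a dashed line where both are equal. Both Aqp8 probes and 1 Aqp4 probe lay far below 0 in both genotypes, while the second Aqp4 probe and the 3 Aqp1 probes lay near 0.

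The order of the 4 group means differed by gene. For Aqp8 the order from high to low was mutant colon, wild-type colon, wild-type small intestine and mutant small intestine, and for Aqp4 it was mutant colon, wild-type colon, wild-type small intestine and mutant small intestine as well. Aqp11 ran wild-type small intestine, mutant small intestine, wild-type colon and mutant colon. Aqp3 was highest in wild-type and then mutant small intestine, and Aqp7 in mutant and then wild-type small intestine, and the colon groups of both genes had means under the background limit and are not ordered. In each of these 5 genes the tissues were called different in both genotypes, and the genotypes overlapped within each tissue. Aqp1 ran wild-type small intestine, wild-type colon, mutant small intestine and mutant colon, with no called difference.

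Upstream sequence is shown for 1 gene that was high in colon and for the 2 aquaglyceroporins that were high in small intestine, because these genes moved in opposite directions between the tissues. Each is the 250 bases before the RefSeq start on GRCm38.p6, 5′ to 3′ on the gene's strand. The windows are chr7:123462044-123462293 on the plus strand for Aqp8, chr4:41098184-41098433 on the minus strand for Aqp3, and chr4:41048137-41048386 on the minus strand for the first of 2 annotated starts of Aqp7. Capitals mark matches to TTTAT, the core of the site bound by CDX factors, AGATAA, which GATA factors bind, or TATAAA, known as the TATA box, searched on both strands.
Aqp8: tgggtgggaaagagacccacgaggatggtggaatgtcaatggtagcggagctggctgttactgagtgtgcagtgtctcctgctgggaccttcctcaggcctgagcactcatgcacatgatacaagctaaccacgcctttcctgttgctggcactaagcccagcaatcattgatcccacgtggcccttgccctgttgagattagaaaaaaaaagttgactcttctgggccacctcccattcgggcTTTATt
Aqp3: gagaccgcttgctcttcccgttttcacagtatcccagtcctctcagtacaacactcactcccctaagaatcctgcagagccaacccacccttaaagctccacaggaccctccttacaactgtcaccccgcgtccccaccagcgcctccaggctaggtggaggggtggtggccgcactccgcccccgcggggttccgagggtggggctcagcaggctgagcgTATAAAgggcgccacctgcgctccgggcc
Aqp7: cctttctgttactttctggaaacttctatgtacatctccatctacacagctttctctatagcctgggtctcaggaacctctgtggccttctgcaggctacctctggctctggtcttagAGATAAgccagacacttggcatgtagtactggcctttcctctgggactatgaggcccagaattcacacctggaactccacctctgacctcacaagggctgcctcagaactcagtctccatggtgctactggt

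The Aqp8 window held TTTAT from 6 to 2 bases before the start. The Aqp3 window held TATAAA from 29 to 24 bases before the start, whose letters also match TTTAT on the other strand. The first Aqp7 window held AGATAA from 132 to 127 bases before the start, and the second held none of the 3 motifs. The Aqp7 gene is annotated up to position 41048237, so the first window lies partly and the second wholly inside it. Neither the Aqp1 window nor the Aqp11 window held any of them, and matches were not listed for Aqp4. Such matches are common, since 37.3% of all 32851 promoter windows held TTTAT on either strand, 9.99% held AGATAA and 12.4% held TATAAA. They describe letters and no binding.

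Mutant against wild-type mice was the second comparison, which asks what the Cftr genotype does to these genes. In small intestine 0 of the 6 genes passed limma's adjusted threshold, beside 0.675% of all features. In colon 0 of 6 passed, where 0% of all features did. At an unadjusted p under 0.05, 1 of 6 genes, Aqp1, fell below the threshold in small intestine, beside 8.14% of features, and 0 of 6 did in colon, beside 5.11%. In none of the 6 genes did mutant and wild-type arrays separate without overlap, against 13.5% of features in small intestine and 8.85% in colon. The difference between the genotype effects of the tissues was called for 0 of 6 genes and 0% of features. At an unadjusted p under 0.05 that difference counted 0 of 6 genes, beside 5.9% of features. With 3 arrays a side, the smallest p of an exact two-sided permutation test is 0.1, and so few arrays limit how precise any value can be.

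Aqp1 had the most negative genotype difference of the 6 genes in each tissue. In small intestine the difference was -0.50 ± 0.20, with a 95% interval from -0.94 to -0.06 before adjustment (SE, n = 3 each, limma adjusted p = 0.504). Mutant array 1, at 10.28, was the lowest of the small-intestinal arrays, and without it the difference was -0.27. The other 2 Aqp1 probes, which share the transcript, gave -0.38 and -0.30. In colon the difference was -0.30 ± 0.20, with an interval from -0.74 to 0.14 (SE, n = 3 each, limma adjusted p = 0.944). The other probes gave -0.37 and -0.33 there. The probe at -0.33 had an interval from -0.66 to -0.01 (limma unadjusted p = 0.0445, adjusted p = 0.94). The intervals of the other probe in colon, and of both in small intestine, included 0. All 6 probe differences were below 0 and none passed.

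Values of vessel, fat and red cell markers stand beside those of Aqp1 in small intestine. The mean of the 13 endothelial markers was 8.46, 8.47 and 8.51 on mutant arrays and 8.65, 8.49 and 8.64 on wild-type arrays. The mean of 5 adipocyte markers was 7.99, 8.03 and 8.24 on mutant arrays and 8.70, 8.25 and 8.65 on wild-type arrays, with 1, 1 and 5 of 8 markers above background on mutant arrays and 4, 4 and 5 on wild-type arrays. Adipoq, the adipocyte hormone adiponectin, read 7.76, 7.72 and 8.17 on mutant arrays and 9.39, 8.32 and 9.27 on wild-type arrays, and Car3 differed similarly, with group means of 7.85 and 8.85. The other tested adipocyte markers differed less, with means in mutant and wild-type small intestine of 9.17 and 9.11 for Cidec, 7.77 and 7.90 for Lep, and 7.77 and 7.79 for Cidea. Hba-a1, a globin of red cells, read 10.77, 10.36 and 9.96 on mutant arrays and 11.78, 9.87 and 11.66 on wild-type arrays. Wild-type arrays 1 and 3 were highest in Aqp1, in the endothelial and adipocyte marker means, in Adipoq and in Hba-a1, but not in the number of adipocyte markers above background. Mutant array 1, the lowest in Aqp1, was next to mutant array 2 in the endothelial and adipocyte marker means. In Hba-a1 it was the highest of the mutant arrays. None of the endothelial, adipocyte or tested erythrocyte markers was called between genotypes by limma. In colon, Hba-a1 read 10.68, 13.26 and 11.52 on mutant arrays and 10.61, 11.03 and 11.70 on wild-type arrays, in an order other than that of Aqp1. The part of fat and red cells was not tested either.

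The 2 aquaglyceroporins gave small differences. Aqp7 in small intestine was 0.25 ± 0.12 higher on mutant arrays, with an interval from -0.02 to 0.51 (SE, n = 3 each, limma adjusted p = 0.666). That value leaned on mutant array 2, at 8.90, since without it the difference was 0.07. Without the 3 arrays high in pancreatic markers, an alternative chosen after seeing the data, it was -0.02. Only mutant array 3, at 8.28, then stood for mutant small intestine. On mutant array 2 the pancreatic markers averaged 11.33 and the 5 adipocyte markers 8.03. Of the adipocyte markers, Adipoq was at 7.72 there, below the background limit, and Cidec at 9.18. On mutant array 1, with pancreatic markers at 9.89, Aqp7 was at 8.47. On wild-type array 2, with pancreatic markers at 11.53, Aqp7 was at 8.31. Their part in the Aqp7 value was not tested. In colon Aqp7 differed by 0.04, with an interval from -0.23 to 0.30, between values that were mostly not well above background. Aqp3 differed by -0.11 in small intestine, with an interval from -0.25 to 0.02, and by -0.01 in colon, with an interval from -0.15 to 0.13.

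The colon-high pair also showed no called genotype difference. Aqp8 in colon was 0.18 ± 0.20 higher in mutant mice, with an interval from -0.26 to 0.62 (SE, n = 3 each, limma adjusted p = 0.978). In small intestine Aqp8 differed by -0.17, with an interval from -0.61 to 0.27, on arrays near the background limit. Aqp4 differed by 0.04 in colon, with an interval from -0.52 to 0.61, and by -0.21 in small intestine, with an interval from -0.78 to 0.35. Aqp11 had the narrowest spread of the bright genes, with -0.04 in small intestine and an interval from -0.22 to 0.14, and -0.02 in colon and an interval from -0.20 to 0.16. A p that misses the threshold does not show that the genotypes are alike, and the intervals give the sizes that remain possible.

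**Figure D4:**
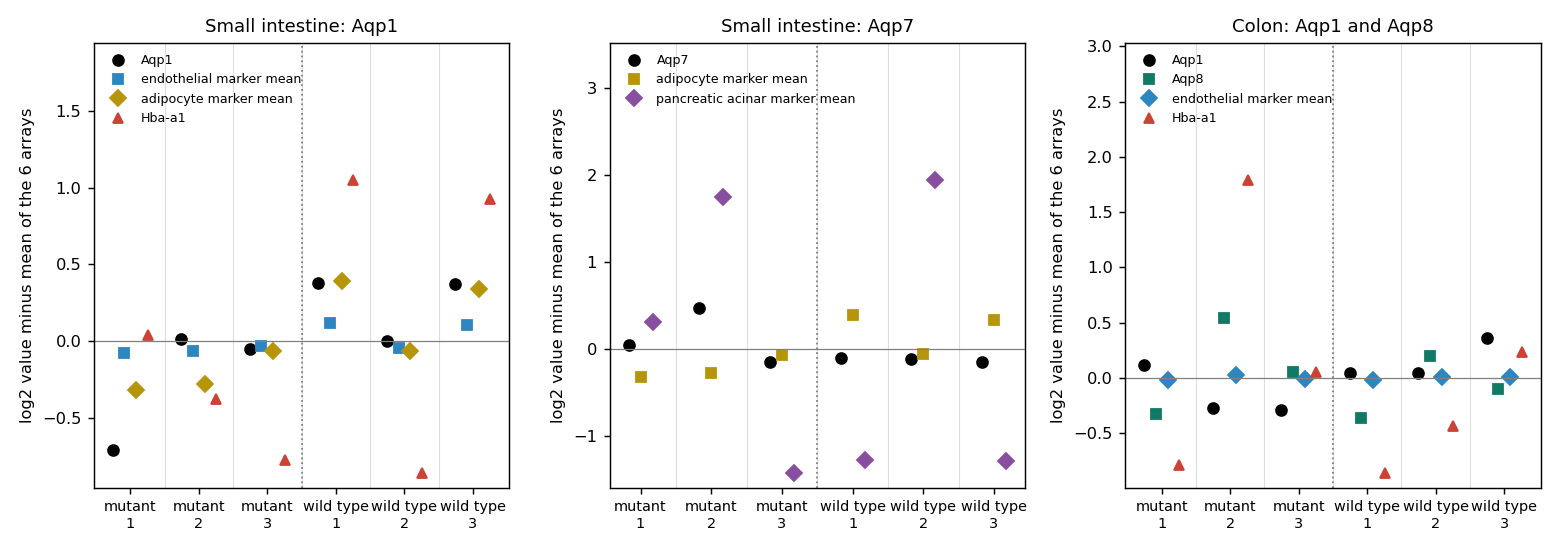
Log2 values centred on the mean of the 6 arrays shown, for Aqp1 with endothelial, adipocyte and Hba-a1 values in small intestine, for Aqp7 with adipocyte and pancreatic marker means in small intestine, and for Aqp1 and Aqp8 with endothelial and Hba-a1 values in colon. Mutant array 1 was lowest in Aqp1 and mutant array 2 highest in Aqp7.

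The difference between the genotype effects, small intestine minus colon, was called for none of the 6 genes. It was -0.20 ± 0.28 for Aqp1, -0.10 ± 0.09 for Aqp3 and -0.25 ± 0.36 for Aqp4. It was 0.21 ± 0.17 for Aqp7, -0.35 ± 0.28 for Aqp8 and -0.02 ± 0.12 for Aqp11 (SE of the fit). The limma adjusted p-values ran from 0.944 to 0.994.

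Aqp4, Aqp8 and Aqp11 spanned at least 1 on the log2 scale across the group means, and the named genes closest to them in pattern were found by the root mean square difference over 12 arrays after centring. For Aqp8 these were Fa2h, Ethe1 and Cd177, at 0.25, 0.27 and 0.30. For Aqp4 they were St6galnac6, Pyy and Klk1b26, at 0.28, 0.29 and 0.29. For Aqp11 they were Ccn2, H2-Q6 and Tprkb, at 0.08, 0.09 and 0.10, in a crowded range where 3374 named genes lay within 0.5, against 19 for Aqp8 and 36 for Aqp4.

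Of the other mouse aquaporin genes, 6 were on the array and 3 were tested, and none passed in any of the 5 contrasts. These 3 were Mip, Aqp5 and Aqp12, all next to the background limit, and Aqp2, Aqp6 and Aqp9 were above it on at most 1 array. Genes that handle glycerol and triglyceride differed between tissues. Of 12 tested, 7 were higher and 3 lower in small intestine in mutant mice, and 7 were higher and 2 lower in wild-type mice, with median differences of 0.54 and 0.39. Over all features 17.3% were higher and 22% lower in mutant mice, and 17.9% and 23.4% in wild-type mice. Mogat2, which rebuilds diglyceride in enterocytes, differed by 3.96 in mutant and 3.98 in wild-type mice. Dgat1, which completes triglyceride, differed by 2.79 in wild-type mice, and Dgat2, its partner, by 2.13. Between genotypes 0 of 12 were called in either tissue.

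For genes of osmotic response and cell volume the calls were near the background. Of 11 tested, 2 were higher and 3 lower in small intestine in each genotype, beside 39.4% of all features called in mutant and 41.2% in wild-type mice, with median differences of -0.06 in mutant and -0.12 in wild-type mice. Slc38a2, an amino acid transporter, differed by -0.85 in wild-type mice, Clcn2 by -0.57, and Nfat5, the transcription factor of osmotic stress, by 0.41. Of 14 tested genes of salt transport, 3 were higher and 9 lower in small intestine in mutant mice, and 2 were higher and 9 lower in wild-type mice, beside 22% and 23.4% of all features called lower, with median differences of -0.17 and -0.49. In wild-type mice Slc26a6, an anion exchanger, differed by 3.86, with 2 of 3 colon arrays above background, and Slc5a1, the glucose and sodium carrier, by 2.99. Atp12a, a proton pump of the colon, was not well above background on any small-intestinal array and was at least 12.0-fold lower there in wild-type mice, with means of 7.75 in small intestine and 11.37 in colon (limma adjusted p = 4.41e-08). Slc6a12 of the osmotic list, and Atp12a, Scnn1b and Scnn1g of the salt transport list, exceeded the background limit only on colon arrays. They entered the fit through the tissue where they were high, so the tissue counts of these lists are no independent support. Between genotypes 0 genes of either list were called.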

How the data were processed

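Gene expression was measured in 12 tissue samples on 1-colour Illumina mouse arrays, although the series description speaks of sequencing. Per the submitters' processing notes limma was used, with no version given. The authors deposited log2 values with equal column distributions (medians 7.76 in each), and how background was treated is not stated. A further 24 columns that match no sample label were not used. The members, gene lists and marker lists were chosen with earlier results of these data known.

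From the deposited log2 values a background limit of 7.78 was set at the mode, 7.70, plus 3 mirrored SD of 0.0276. Probes above it on at least 3 arrays were kept, 22873 of 45281, and the probe with the highest mean stood for its gene, giving 15996 features, 12192 of them named genes. In the platform annotation 34885 probes had 1 symbol, 18 several and 10378 none, and Entrez numbers matched 34807. limma 3.58.1 in R 4.3.3 fitted 1 mean per group over all 12 arrays, with 8 residual and 2.15 prior degrees of freedom and Benjamini-Hochberg adjustment in each of 5 contrasts. The fit was checked on simulated data. Named genes were all members, the other aquaporins, Cftr, up to 3 members of a list with the largest differences, and the 3 most alike per member spanning at least 1. Each mouse gave both tissues, but the labels tie no same-numbered arrays to 1 mouse. The tissue contrasts and the difference of genotype effects therefore treat all arrays as independent. The p-values reflect only how far these arrays scatter. The closest arrays of all, colon mutant 1 and colon wild type 1, differed with an SD of 0.0647. Between tissues, endothelial markers had 12 of 13 higher in small intestine in mutant and 11 higher and 1 lower in wild-type mice, adipocyte markers 1 of 5 and 3 of 5 higher, and pancreatic markers 1 of 11 higher in both. Enterocyte markers had 10 of 10 and smooth muscle markers 7 of 7 higher, and colonocyte markers 7 of 8 lower, in both. Epithelial markers had 2 of 8 higher in both, with 3 lower in mutant and 4 in wild-type mice, and 1 of 2 tested erythrocyte markers was lower in mutant mice. Between genotypes 1 of these markers was called, the enterocyte enzyme Treh, at 12.13 in mutant and 12.55 in wild-type small intestine. Goblet markers, 8 tested, had 4 lower and 1 higher in small intestine in mutant and 5 lower and 1 higher in wild-type mice. Macrophage markers had 6 of 7 higher and 1 lower in both, and glial and neuronal markers 2 of 3 higher in both. The 1 tested Brunner gland marker was not called. Beside these tissue counts, 17.3% of all features were higher and 22% lower in mutant mice, and 17.9% and 23.4% in wild-type mice. Myh11, Myl9 and Emcn, among other markers, were kept only through their small-intestinal arrays, so these counts are no independent support.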

Additional observations from a re-analysis of the deposited data

How the results depend on the processing

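The number of aquaporins called in each contrast was unchanged in each of its 24 alternatives (23 for the difference of genotype effects), and 691 gene values kept sign and side of the threshold. The other 23 changed sign, all in differences that were never called, and the cause was not tested. With array weights they were Aqp4 in colon between genotypes, at -0.026, and Aqp11, at 0.0012. Without the 3 arrays high in pancreatic markers, they were Aqp4 in small intestine, at 0.0017, and Aqp7 there, at -0.020. The difference of genotype effects of Aqp7, at -0.057, also changed sign without them. That alternative was chosen after seeing the data and leaves mutant array 3 alone in mutant small intestine. Leaving out 1 array at a time gave -0.21 to 0.23 for Aqp4, -0.076 to 0.059 for Aqp11, -0.039 to 0.017 for Aqp3 and -0.047 to 0.39 for Aqp8 between genotypes in colon, and -0.10 to 0.0018 for Aqp11 in small intestine. It gave -0.11 to 0.25 for Aqp1 between tissues in mutant mice, and differences of genotype effects of -0.33 to 0.030 for Aqp1 and -0.10 to 0.036 for Aqp11. Same-numbered small-intestinal and colon arrays of 1 genotype did not deviate together in every pair (correlations from -0.042 to 0.16). Numbers were therefore not taken as pairs. Same-numbered mutant and wild-type arrays, which are different mice, gave correlations from -0.21 to 0.37. With the replicate number as a block the aquaporin counts stayed at 0, 0, 0, 5 and 5, Aqp1 in small intestine stayed at -0.50 with a limma adjusted p of 0.618, and the number of all features called there was 57, against 108. That number was 0 to 149 with 1 array left out. It was 0 without wild-type array 3 and 2 without wild-type array 1. It was 55 to 70 without colon mutant 1 or 3 or colon wild type 1 or 2. It was 3 with its own arrays alone, 61 with normexp and 179 with array weights. For colon it was 0, against 0 to 31 with 1 array left out (31 without mutant array 1, 1 without wild-type array 1). For the difference of effects it was 0, against 0 to 36 with 1 array left out, and 1 with a robust prior. The 36 came without small-intestinal wild type 2, with 8 to 20 without a small-intestinal mutant array and 5 without colon mutant 1. Values near the floor carry little signal over background, which limits Aqp3 and Aqp7 in colon and Aqp8 in small intestine.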
